A study of Homo sapiens with 12 samples.

Results

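The expression of 10 chemokine and inflammatory NF-kB genes was examined in HuH-7 cells under the compound SLMP53-2. HuH-7 is an established line of human hepatocellular carcinoma cells whose p53 carries the mutation Y220C, and SLMP53-2 is studied for restoring activity to mutant p53. All cells carried this mutation and were harvested after 24 h in DMSO, the solvent and control, or in SLMP53-2 at 28 µM or 42 µM, doses of 2 and 3 times the IC50. There were 4 biological replicates per group, as labelled, with 1 array for each, and the comparisons ask what each dose changed against the solvent alone. The higher dose is 42 µM in the titles of the samples and 48 µM in their descriptions, and it is called 42 µM here. The genes were the interleukin-8 gene CXCL8 (also called IL8), CXCL1, CXCL2, CXCL3, CCL2, CCL20, NFKBIA, NFKB1, TNFAIP3 and ICAM1. They were taken by name among the 29245 gene names on the array, and 13 of its 41000 gene probes belong to them.

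NF-kB is a family of dimeric transcription factors that is held in the cytoplasm of resting cells by inhibitor proteins, among them the product of NFKBIA. Tumor necrosis factor, interleukin-1 or bacterial products activate the IKK kinases, the inhibitor is degraded, and the freed dimer, which often contains the p50 product of NFKB1, enters the nucleus. There it activates chemokine genes, the adhesion molecule ICAM1 and, as feedback, NFKBIA and TNFAIP3, whose products shut the pathway down. In the liver, hepatocytes and the tumor cells derived from them can themselves release these chemokines. The products of CXCL1, CXCL2, CXCL3 and CXCL8 attract neutrophils, that of CCL2 monocytes, and that of CCL20 cells with the receptor CCR6.

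CXCL1, CXCL2 and CXCL3 are neighbouring duplicated genes, and the bases just before their starts are shown because they are close to identical while CXCL1 alone of the 3 genes was called lower in the results that follow. The stretch of NFKBIA is shown beside them as that of a feedback gene. Each run holds the 100 bases before the annotated start in RefSeq (GRCh38.p14), read 5′ to 3′ along the gene. Capitals mark matches to the NF-kB consensus, taken as GGGRNNYYCC and searched on both strands. In this string R is A or G, Y is C or T and N is any base. In the 3 chemokine genes 2 matches on opposite strands overlap.
CXCL1, chr4:73869293-73869392, plus strand: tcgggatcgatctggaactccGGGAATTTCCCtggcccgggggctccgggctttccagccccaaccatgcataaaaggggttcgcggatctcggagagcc
CXCL2, chr4:74099196-74099295, minus strand: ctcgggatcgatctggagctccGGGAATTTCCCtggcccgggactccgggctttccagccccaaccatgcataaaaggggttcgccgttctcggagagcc
CXCL3, chr4:74038690-74038789, minus strand: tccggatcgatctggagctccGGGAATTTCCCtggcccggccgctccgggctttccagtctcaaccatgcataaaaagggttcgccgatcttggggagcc
NFKBIA, chr14:35404750-35404849, minus strand: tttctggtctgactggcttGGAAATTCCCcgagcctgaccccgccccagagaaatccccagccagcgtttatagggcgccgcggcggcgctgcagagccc

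The first match began 79 bases before the start in CXCL1 and CXCL3 and 78 bases before it in CXCL2, with the same letters, GGGAATTTCC. Aligned over these 100 bases, CXCL1 had 95 bases in common with CXCL2 and 90 with CXCL3, and CXCL2 had 90 in common with CXCL3. NFKBIA held a match 81 bases before its start, CCL20 one 79 bases before, NFKB1 one 49 bases before, and TNFAIP3 had matches 67 and 55 bases before its start. In the whole stretch of 300 bases around the start that was searched, most of it before the start, CXCL8 and ICAM1 held no exact match. The 100 bases before the start of CXCL8 do hold TGGAATTTCC, which has T where the consensus begins with G. CXCL8 also held the letters TGACTCA, an AP-1 motif searched on both strands, 137 bases before its start. Of 35116 RefSeq promoter stretches of 300 bases, 11.3% held the NF-kB consensus and 4.95% this AP-1 motif. CCL2 was not in the table. A match describes letters only, and the lack of an exact match does not show that a gene has no NF-kB site.

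The arrays carry 1 dye, and a spot is brighter the more of its transcript the labelled RNA holds. Levels are given as log2 normalized intensity, after background correction and quantile normalization, and a level was not compared between probes. Between 65.0% and 85.0% of 43376 gene spots per array were well above background, the scanner's flag for detection, and none was saturated. All 10 hepatocyte markers examined, ALB and AFP among them, were detected on all 12 arrays. The leukocyte marker PTPRC was detected on none, and of the leukocyte list 7 of 10 genes were detected on all 12, as were 3 of 7 endothelial and 4 of 8 fibroblast and stellate cell markers. The intensity of the leukocyte list, summed over its genes, had log2 values between 10.5 and 10.8 under DMSO, between 10.2 and 10.9 at 28 µM and between 10.1 and 10.5 at 42 µM. The endothelial sum was 8.98 to 9.11 under DMSO and 8.99 to 9.04 at 42 µM. That of the fibroblast and stellate cell list was 11.23 to 11.34 and 11.13 to 11.27. In an established line these sums describe transcripts and not numbers of other cells, and their part in the results was not tested. The array of 28 µM replicate 4 stood apart from the other 28 µM arrays. Over the 725 genes called at 42 µM its median difference from the DMSO mean, counted in the direction of the call, was 0.14, against 0.72 to 0.90 on the other 28 µM arrays and 0.76 to 1.17 on the 42 µM arrays. Results at 28 µM are therefore given with and without it. The array was singled out after the values had been seen, over genes that include CXCL1 and the pathway genes called at 42 µM. Leaving it out therefore favours a call of these genes at 28 µM. A call at 42 µM is favoured too, because the spread of a gene is estimated over all 3 groups. Results without this array are a description.

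The probe of CXCL8 was not well above background on any of the 12 arrays, where it read between 5.71 and 6.05 under DMSO, between 5.68 and 5.86 at 28 µM and between 5.64 and 5.89 at 42 µM. Only 5.01% to 24.1% of all probes on an array were dimmer, so these readings have no order and no fold change is given. By the scanner's other flag, which asks only for a positive signal significantly over background, CXCL8 was counted too, making 10 of 10 genes. The other 9 genes were detected on all 12 arrays and entered the test, limma's moderated test in a model of all 3 groups. A gene is called at a Benjamini-Hochberg adjusted p below 0.05, over all 33467 probes tested, together with a log2 change whose size is 0.6 or more. Both doses are set against the same DMSO arrays.

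**Figure D1:**
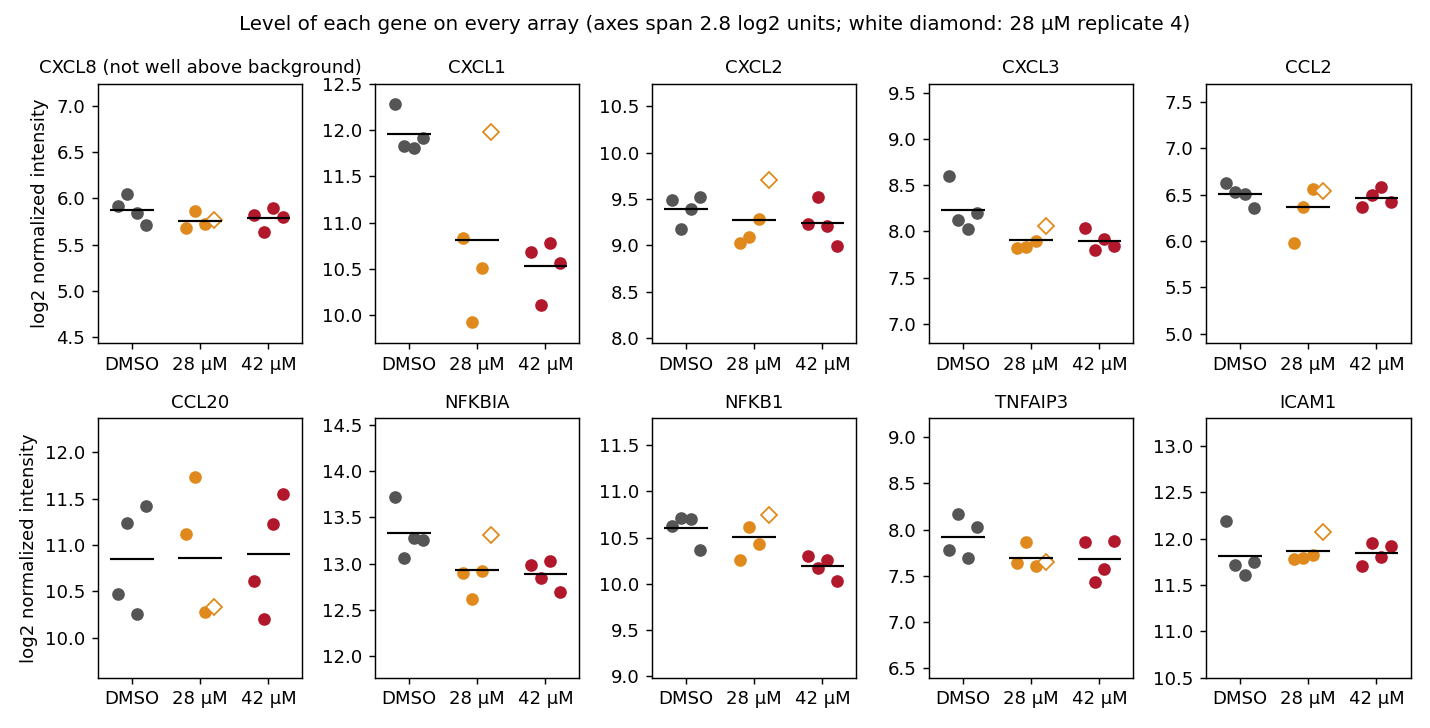
Log2 normalized intensity (vertical axis) of each of the 10 genes on every array, by treatment group, with the group mean as a line; every panel spans 2.8 log2 units. CXCL1 is at 10.12 to 10.78 on the 42 µM arrays, under all DMSO arrays, while 28 µM replicate 4 (white diamond) is among the DMSO arrays at 11.98.

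CXCL1 was the only one of the 10 genes called, and it was lower at 42 µM. It read 12.28, 11.83, 11.80 and 11.92 on DMSO replicates 1 to 4, 10.83, 9.93, 10.52 and 11.98 at 28 µM, and 10.68, 10.12, 10.78 and 10.57 at 42 µM. All 42 µM arrays lay below all DMSO arrays, and so did those at 28 µM apart from replicate 4, which read as high as the DMSO arrays. At 42 µM CXCL1 fell by 1.42 on the log2 scale (SE 0.33, 95% interval −2.12 to −0.72, adjusted p = 0.034 from limma), to 37.4% of its DMSO level. At 28 µM the change was −1.14 on the same scale (SE 0.33), not called with all arrays (adjusted p = 0.229 from limma), and without replicate 4 it was −1.53 (SE 0.22, adjusted p = 0.0043), past both limits. That array was set apart by genes that include CXCL1, so the value without it is not independent support for a fall at 28 µM. In bulk RNA, less transcript per cell and fewer cells that make it cannot be told apart.

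The call of CXCL1 at 42 µM depended on single arrays more than its size did. Without DMSO replicate 1, 2, 3 or 4 the log2 fold change was −1.31, −1.46, −1.47 or −1.43, and without 42 µM replicate 1, 2, 3 or 4 it was −1.47, −1.28, −1.50 or −1.43, each time with an adjusted p between 0.058 and 0.132 from limma. Without 28 µM replicate 4 it remained −1.42, with an SE of 0.20 and an adjusted p of 0.0019 from limma. That array has no part in the fold change at 42 µM, and leaving it out only narrows the shared spread. Over all genes, 2.23% were then called higher and 1.87% lower at 42 µM. The smaller p is therefore not independent support for the call. The arrays lie on 5 slides, and on each slide that held both groups the 42 µM array read lower than the DMSO array, with differences of −1.24, −1.69 and −1.05 on slides 2, 4 and 5. With the slide as a block in the model the log2 fold change was −1.30 and no longer called (SE 0.37, adjusted p = 0.126 from limma). Between the doses CXCL1 differed by −0.28 (95% interval −0.98 to 0.43), and by 0.11 without replicate 4 (−0.36 to 0.59), so the order of the doses is within the spread of the arrays.

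Read against all genes tested, 1 of the 9 detected genes was called lower at 42 µM and none higher, where 1.42% of 24251 genes were called lower. At 28 µM none was called, with 0% of all genes called; with p left unadjusted, at the same limits of 0.05 and 0.6, CXCL1 was lower, as were 1.23% of all genes. Without 28 µM replicate 4, CXCL1 was called at 28 µM beside 0.986% of all genes called lower. The other 8 genes were not called at 28 µM without that array either, with log2 fold changes of −0.52 for NFKBIA, −0.38 for CXCL3, −0.26 for CXCL2, −0.21 for TNFAIP3, −0.20 for CCL2, −0.17 for NFKB1, −0.02 for ICAM1 and 0.20 for CCL20. At 42 µM, 3 of the 9 genes, CXCL1, NFKBIA and NFKB1, had all treated arrays below all DMSO arrays, against 7% of all genes. No gene of the 9 was separated in this way at 28 µM, against 5.71% of all genes in either direction. The median log2 fold change of the 9 genes was −0.14 at 28 µM and −0.23 at 42 µM, beside −0.02 over all genes at each dose. Between 42 µM and 28 µM none of the 9 was called, with 0% of all genes and a smallest adjusted p of 0.9995 from limma; with p left unadjusted none of the 9 passed either, against 0.301% of all genes.

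**Figure D2:**
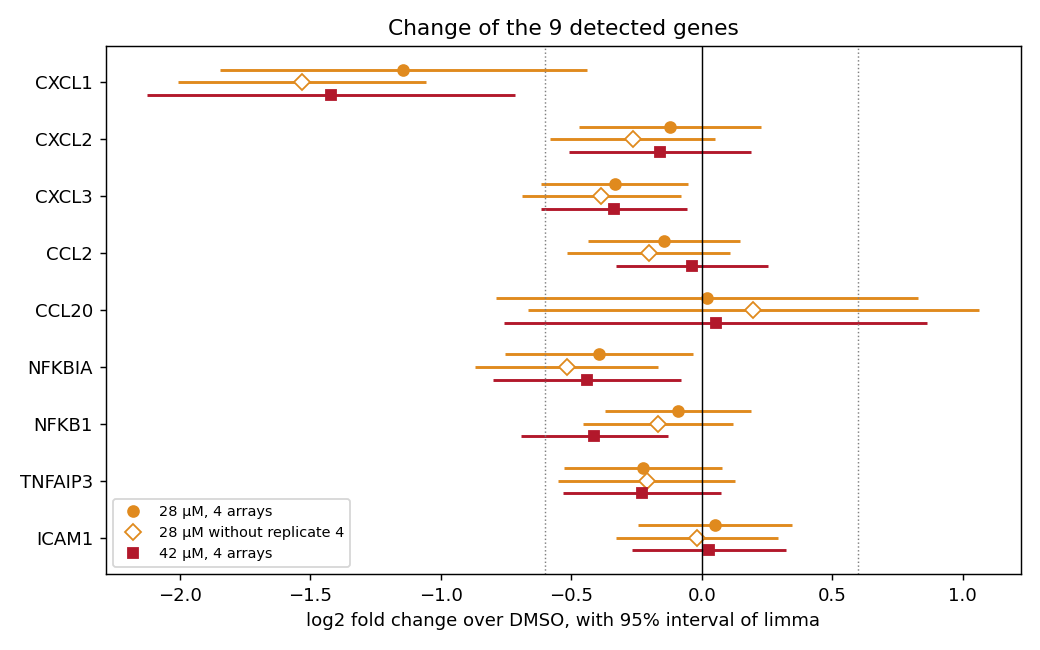
Log2 fold change over DMSO (horizontal axis) of the 9 detected genes with its 95% interval from limma, at 28 µM, at 28 µM without replicate 4 and at 42 µM; dotted lines mark a change of 0.6 in size. The interval of CXCL1 at 42 µM runs from −2.12 to −0.72, while those of CCL2, CCL20 and ICAM1 span 0 at both doses.

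The neighbours of CXCL1 moved less. CXCL2 read 9.49, 9.17, 9.39 and 9.53 on DMSO, 9.02, 9.08, 9.28 and 9.70 at 28 µM, and 9.23, 9.52, 9.20 and 8.99 at 42 µM, and the groups overlapped. Its log2 fold change was −0.12 at 28 µM (95% interval −0.47 to 0.23) and −0.16 at 42 µM (−0.51 to 0.19), with adjusted p of 0.808 and 0.741 from limma. A second, dimmer probe of CXCL2 gave −0.28 and −0.14.

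CXCL3 read 8.59, 8.12, 8.03 and 8.20 on DMSO, 7.82, 7.83, 7.90 and 8.05 at 28 µM, and 8.04, 7.80, 7.92 and 7.84 at 42 µM. The treated arrays were at the low end of the DMSO range or under it, and 1 array of each dose lay within that range. The log2 fold changes were −0.33 for 28 µM and −0.34 for 42 µM, each with an SE of 0.13, and their adjusted p were 0.364 and 0.215 from limma. Its second probe gave −0.26 and −0.17.

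The changes of the 3 genes at 42 µM were set against each other within arrays, a comparison chosen after the values had been seen. The log2 value of CXCL1 minus that of CXCL2 lay between 2.39 and 2.79 under DMSO and between 0.59 and 1.58 at 42 µM, so CXCL1 changed by −1.26 relative to CXCL2. Relative to CXCL3 it changed by −1.08, the values being 3.68 to 3.78 under DMSO and 2.32 to 2.86 at 42 µM. These values are a description for which no p-value is given, and the levels of the probes were not compared.

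The probes of CXCL2 and CXCL3 can share signal, and a pair of them is shown for that reason. Capitals mark the bases they have in common where they overlap, 30 of 32.
CXCL3, hg19 chr4:74902991-74903865: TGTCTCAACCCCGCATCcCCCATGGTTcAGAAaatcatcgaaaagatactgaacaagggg
CXCL2, hg19 chr4:74964342-74964401: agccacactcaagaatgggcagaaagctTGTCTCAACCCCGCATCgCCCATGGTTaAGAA
The first is the dimmer probe of CXCL3, whose 60 bases span 875 bases of the genome, and the second is the probe that stands for CXCL2 here. The CXCL1 probe, at chr4:74736850-74736909 of hg19, was not among the probes with such an overlap. Probes were compared only with each other and not with transcripts. Whether the probes of CXCL2 and CXCL3 also take up CXCL1 transcript was therefore not tested.

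CCL2 was close to background, and its level was read from 10 spots of the same probe per array, of which 7 to 10 were well above background. It read 6.62, 6.53, 6.51 and 6.35 on DMSO, 5.97, 6.36, 6.57 and 6.54 at 28 µM, and 6.36, 6.50, 6.59 and 6.42 at 42 µM. The groups overlapped and only 28 µM replicate 1 was under all others. The log2 fold change was −0.14 at 28 µM (95% interval −0.43 to 0.15) and −0.04 at 42 µM (−0.33 to 0.25), with adjusted p of 0.725 and 0.948 from limma. Among the 10 spots of an array the median SD was 0.20.

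CCL20 differed between slides far more than between treatments. It read 10.47, 11.24, 10.25 and 11.42 on DMSO, 11.11, 11.74, 10.28 and 10.33 at 28 µM, and 10.62, 10.20, 11.22 and 11.56 at 42 µM. High and low arrays occurred in all 3 groups, and the log2 fold changes of 0.02 at 28 µM and 0.05 at 42 µM had wide 95% intervals (−0.79 to 0.83 and −0.76 to 0.86). By slide, the readings were 10.28 to 10.47 on slide 1, 10.62 to 11.42 on slide 2, 11.56 to 11.74 on slide 3, 10.20 to 10.33 on slide 4 and 11.22 to 11.24 on slide 5. The slide accounted for 89.5% of the variance of CCL20 over the 12 arrays and the treatment group for 0.163%; for the median gene these shares were 43.5% and 18.4%, and 393 of 24209 genes had a higher share between slides. With the slide as a block the log2 fold change was −0.10 at 28 µM (95% interval −0.43 to 0.24, adjusted p = 0.818 from limma) and −0.30 at 42 µM (−0.64 to 0.03, adjusted p = 0.389). Which step of the experiment the slide stands for is not given, and its part was not tested further.

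**Figure D3:**
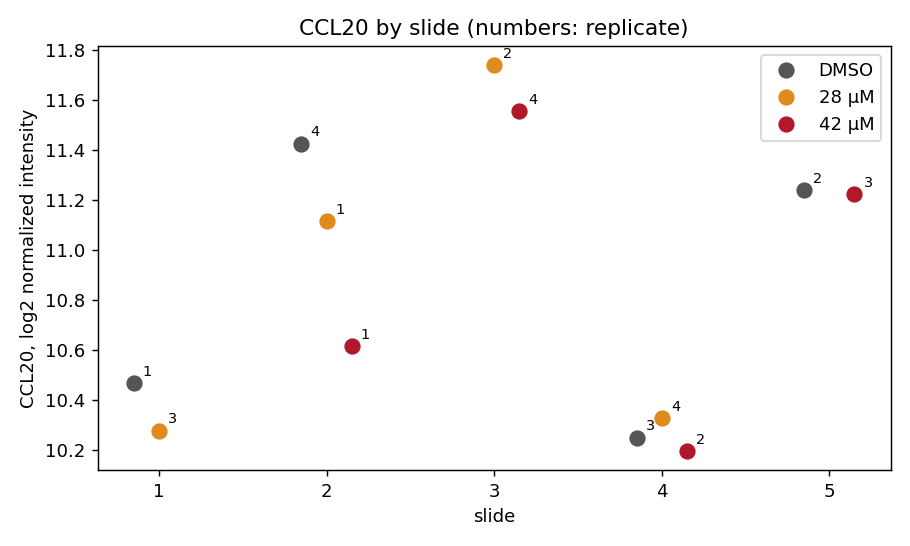
CCL20 as log2 normalized intensity (vertical axis) on the 12 arrays, by slide (horizontal axis), coloured by treatment and numbered by replicate. The 5 arrays of slides 1 and 4 read 10.20 to 10.47 whatever the treatment, and the 7 arrays of slides 2, 3 and 5 read 10.62 to 11.74. The slides were grouped in this way after these values had been seen.

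The feedback inhibitor NFKBIA, which encodes IkB alpha, was lower on all 42 µM arrays than on any DMSO array but was not called. It read 13.72, 13.06, 13.28 and 13.26 on DMSO, 12.90, 12.61, 12.92 and 13.30 at 28 µM, and 12.99, 12.85, 13.02 and 12.69 at 42 µM. At 28 µM only replicate 4 lay within the DMSO range, as for CXCL1. At 28 µM the log2 fold change of −0.39 had an SE of 0.17 and an adjusted p of 0.409 from limma. Without replicate 4 it was −0.52 (SE 0.16, adjusted p = 0.132). The value for 42 µM was −0.44 (SE 0.17, adjusted p = 0.203). It depended on the scaling and was −0.69 with the processed signal and −0.67 with Edwards values, both scaled to the 75th percentile, and neither was called (adjusted p = 0.10 and 0.082 from limma). Within slides the 42 µM array differed from the DMSO array by −0.27, −0.43 and −0.03 on slides 2, 4 and 5.

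NFKB1, whose product gives the p50 subunit, was read from 10 spots per array with a median SD of 0.161 among them. It read 10.63, 10.71, 10.70 and 10.37 on DMSO, 10.26, 10.61, 10.43 and 10.74 at 28 µM, and 10.30, 10.17, 10.25 and 10.03 at 42 µM. The 42 µM arrays lay below all DMSO arrays, and the 28 µM arrays overlapped with DMSO. The change of −0.09 at 28 µM had an adjusted p of 0.823 from limma, and that of −0.41 at 42 µM (SE 0.13) one of 0.116, short of both limits. NFKB1 had the lowest unadjusted p of the 9 genes between the doses, 42 µM minus 28 µM being −0.32 (95% interval −0.60 to −0.04, unadjusted p = 0.028 and adjusted p = 0.9995 from limma).

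TNFAIP3 encodes A20, a ubiquitin-editing enzyme that ends NF-kB signalling. It read 7.78, 8.16, 7.69 and 8.02 on DMSO, 7.63, 7.87, 7.61 and 7.65 at 28 µM, and 7.86, 7.44, 7.57 and 7.87 at 42 µM, with overlapping groups. The log2 fold change was −0.22 at 28 µM (95% interval −0.53 to 0.08) and −0.23 at 42 µM (−0.53 to 0.07), with adjusted p of 0.584 and 0.504 from limma. A second probe of TNFAIP3 was well above background on 0 DMSO, 2 of the 28 µM and 1 of the 42 µM arrays and gave 0.078 and 0.034.

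ICAM1, the adhesion molecule that leukocytes bind through integrins, was not called at either dose. It read 12.19, 11.72, 11.60 and 11.75 on DMSO, 11.78, 11.80, 11.82 and 12.07 at 28 µM, and 11.70, 11.95, 11.80 and 11.92 at 42 µM. All treated arrays lay within the DMSO range. The log2 fold change was 0.05 at 28 µM (95% interval −0.24 to 0.35) and 0.03 at 42 µM (−0.27 to 0.32), so changes of 0.35 or more in size are outside both intervals.

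Over the 12 arrays the levels of CXCL1 and NFKBIA correlated with a Pearson r of 0.89, those of CXCL3 and NFKBIA with 0.90 and those of CXCL1 and CXCL3 with 0.81. These were the highest values among pairs of the detected genes. The other pairs ran from 0.67 for CXCL2 with NFKBIA down to −0.64 for CXCL2 with CCL20. NFKBIA and TNFAIP3, both feedback genes, had an r of 0.06. The arrays share treatment groups and slides, so these values only describe them. The genes whose levels ran closest to CXCL1 were DUSP26 (r of 0.98), PSMD1 (0.97) and FNTB (0.97), and those closest to NFKBIA were SCHIP1 (0.96), ZMAT2 (0.95) and the chemokine gene CX3CL1 (0.94). The closest gene was ANXA8L1 for CXCL2 (0.95), MSX1 for CXCL3 (0.95), FAM114A1 for CCL20 (0.93), PITPNB for NFKB1 (0.94), LYPD6 for TNFAIP3 (0.94) and ESPNL for ICAM1 (0.88). For CCL2 the closest was a transcript known only by an accession, followed by NOS2 (0.97).

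The wider pathway was read from 8 lists of 148 genes, of which 147 were on the array and 130 were tested. At 42 µM, 1 of the 130 was called higher, where 1.57% of all genes were, and 4 were called lower, where 1.42% were. Their median log2 fold change was −0.03 at each dose. At 28 µM none was called with all arrays; with p left unadjusted 1 was higher, against 1.46% of all genes, and 4 were lower, against 1.23%. Without 28 µM replicate 4, 7 were called lower at 28 µM, against 0.986% of all genes, namely LTB, CX3CL1, CXCL6, CXCL10, IER3, CSF1 and ZC3H12A. All 42 µM arrays lay above all DMSO arrays for 9 of the 130, beside 5.93% of all genes, and below them for 21, beside 7% of all genes.

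**Figure D4:**
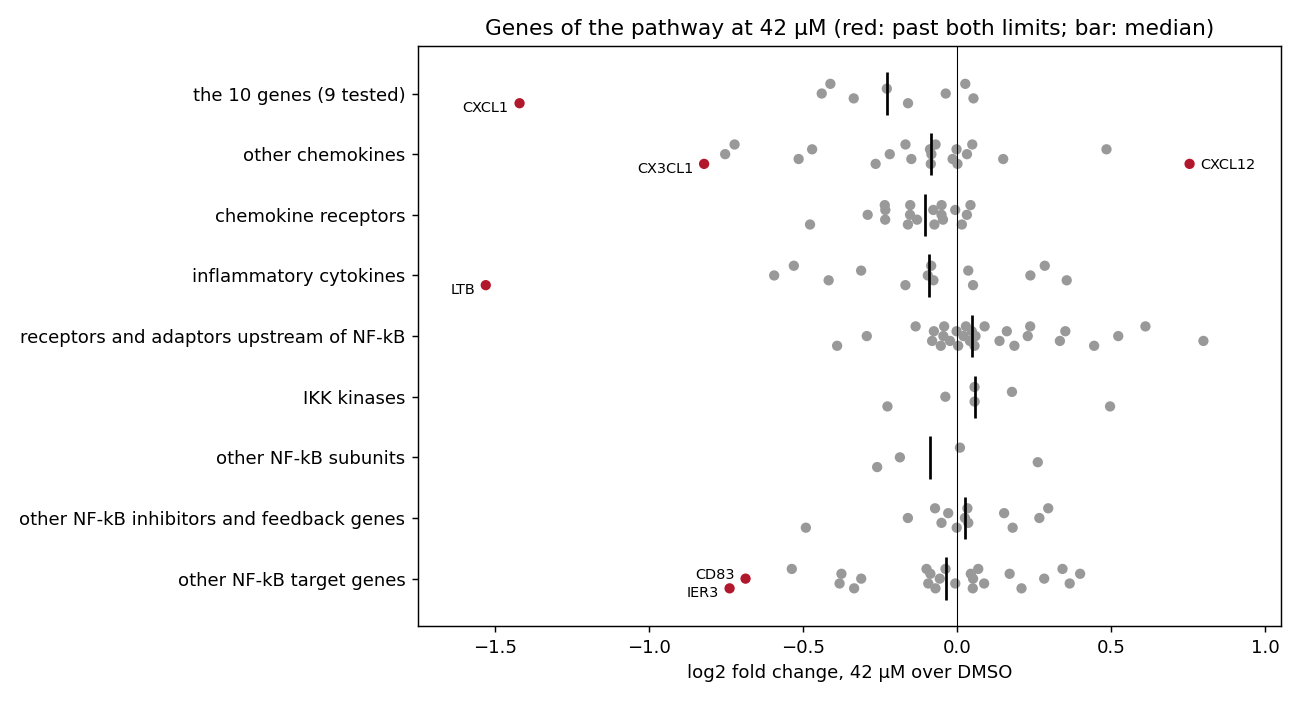
Log2 fold change at 42 µM over DMSO (horizontal axis) of the 9 detected genes and of the tested genes of each pathway list, with the median of each list as a bar; red points passed both limits. LTB (−1.53) and CXCL1 (−1.42) are farthest to the left and CXCL12 (0.75) is the red point on the right.

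Among the 14 tested cytokines, LTB was the only one called at 42 µM. LTB encodes lymphotoxin beta, a membrane protein of the tumor necrosis factor family that signals through the receptor LTBR. It read 12.83, 11.92, 11.89 and 11.80 on DMSO, 10.75, 10.43, 10.93 and 11.80 at 28 µM, and 10.54, 10.37, 10.85 and 10.56 at 42 µM. As for CXCL1, all 42 µM arrays lay below all DMSO arrays and only replicate 4 of 28 µM reached them. LTB fell by 1.53 at 42 µM (SE 0.28, adjusted p = 0.016 from limma). At 28 µM the log2 fold change was −1.13 (adjusted p = 0.189), and −1.40 without replicate 4 (adjusted p = 0.0086). The call at 42 µM was lost without DMSO replicate 2 (−1.59), without 42 µM replicate 2 (−1.46) and when slide was a block (−1.35). For CSF1, which drives macrophage growth, the change was −0.59 at 42 µM (adjusted p = 0.141 from limma) and −0.73 at 28 µM without replicate 4 (adjusted p = 0.036).

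LTBR, named after its values had been seen as the receptor for LTB, had 0.80 as its log2 fold change at 42 µM, short of the limit on p (SE 0.23, adjusted p = 0.080 from limma), and its groups overlapped. It was one of 29 tested receptors and adaptors upstream of NF-kB, of which none was called and whose median was 0.05. TRAF5, an adaptor of this receptor family, had 0.61 (adjusted p = 0.053 from limma). It was called without 28 µM replicate 4 (adjusted p = 0.015) or 1 (0.045) and without 42 µM replicate 4 (0.044). It was also called with the deposited values (0.0475), a stricter detection filter (0.048) and a model of only the groups compared (0.023). TRAF5 was not called when any single DMSO array was left out. LTBR was called without 42 µM replicate 1 (1.01, adjusted p = 0.036), and both were called with slide as a random block and with the replicate number as a block.

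Of 21 tested other chemokines, 1 was called lower and 1 higher at 42 µM. CX3CL1, the membrane-bound chemokine fractalkine, read 12.52, 11.93, 11.86 and 11.96 on DMSO, 11.35, 11.01, 11.36 and 11.80 at 28 µM, and 11.25, 11.08, 11.50 and 11.16 at 42 µM. Every treated array was below every DMSO array. It fell by 0.82 at 42 µM (SE 0.18, adjusted p = 0.030 from limma). The change at 28 µM was −0.69 (adjusted p = 0.207), or −0.82 without replicate 4 (adjusted p = 0.028). Its 2 dimmer probes gave −0.42 and −0.55 at 42 µM and were not called. CXCL12, the ligand of CXCR4, read 6.87 to 7.16 on the 4 DMSO arrays and 8.27, 7.76, 7.53 and 7.56 at 42 µM, and it rose by 0.75 (SE 0.17, adjusted p = 0.031 from limma). Of the other probes of CXCL12, 1 was not well above background on any array and the other gave −0.17.

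The calls of CX3CL1 and CXCL12 at 42 µM were lost when any single DMSO array was left out (−0.67 to −0.89 and 0.70 to 0.80), without 42 µM replicate 1 (−0.82 and 0.59) or 2 (−0.76 and 0.76), and in the model that blocks on slide (−0.70 and 0.80). That of CX3CL1 was also lost without 42 µM replicate 4 (−0.79), and that of CXCL12 when Edwards values were put on the 75th percentile scale (0.79, adjusted p = 0.058 from limma). CXCL6 and CXCL10, which attract neutrophils and T cells, were not called in the model of all 3 groups with all arrays (−0.72 and −0.75 at 42 µM, adjusted p = 0.096 and 0.078 from limma) and were called lower at both doses without 28 µM replicate 4. Both were also called at 42 µM when only the groups compared entered the model, and CXCL10 with Edwards values on the 75th percentile scale (adjusted p = 0.046), with slide as a random block (0.046) and with the replicate number as a block (0.017). The processed signal gave larger changes, −1.22 for CXCL6 and −2.43 for CXCL10, and neither was called (adjusted p = 0.073 and 0.122 from limma). CXCL10 was well above background on 4 DMSO arrays, 2 at 28 µM and 1 at 42 µM. Of the chemokine receptors, 18 were tested, none was called and the median was −0.10, with the largest change in CXCR4 (−0.48, adjusted p = 0.153 from limma).

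The machinery between receptor and gene showed no call with all arrays. Of 6 IKK kinase genes, IKBKB had the largest change, 0.50 at 42 µM (SE 0.14, adjusted p = 0.081 from limma), with every treated array above every DMSO array at both doses. IKBKB was called without 42 µM replicate 4 (0.60, adjusted p = 0.042). Its other probes gave 0.43 and −0.12. IKBKE followed with −0.23 (adjusted p = 0.681). The other NF-kB subunit genes were RELA, with 0.01 at 42 µM, REL with −0.19, NFKB2 with −0.26 and RELB with 0.26 (adjusted p = 0.329 for RELB, from limma). Of 13 tested inhibitor and feedback genes ZC3H12A, whose product degrades cytokine transcripts, had the largest change, −0.49 (adjusted p = 0.121), and −0.65 at 28 µM without replicate 4 (adjusted p = 0.042). Their median was 0.03.

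Of 25 tested other NF-kB targets, 2 were called lower at 42 µM and none higher, and the median was −0.04. IER3, an early response gene, read 11.22, 10.75, 10.69 and 10.73 on DMSO and 10.10, 9.99, 10.02 and 10.33 at 42 µM, and fell by 0.74 (SE 0.17, adjusted p = 0.036 from limma). CD83, a surface protein of activated immune cells, read 8.27, 8.05, 7.89 and 7.94 on DMSO and 7.53, 7.07, 7.33 and 7.49 at 42 µM, and fell by 0.69 (SE 0.15, adjusted p = 0.029). For both, all 42 µM arrays lay below all DMSO arrays. Both calls were lost when any single DMSO array was left out (−0.61 to −0.79 for IER3 and −0.61 to −0.74 for CD83), without 42 µM replicate 2 (−0.70 and −0.59) or 3 (−0.71 and −0.68), and in the model that blocks on slide (−0.70 and −0.65). IER3 was also not called without 28 µM replicate 3 (−0.74) or 42 µM replicate 1 (−0.74), nor with the processed signal (−0.87, adjusted p = 0.058 from limma). CD83 was not called with Edwards values on the 75th percentile scale (−0.66, adjusted p = 0.052).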

How the data were processed

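The authors deposited the scanner output of 12 Agilent 1-colour arrays, in which each spot has a mean and a background intensity and detection flags (Agilent Feature Extraction 10.7.3.1 in the submitters' processing notes), and a table of log2 values that the authors had background-corrected by the Edwards method and quantile normalized. Arrays have no read depth; their number limits the precision. The mean and background intensities were processed again in the same way with limma 3.58.1 in R 4.3.3: control spots and outlier spots were left out and the spots of a probe were averaged on the log2 scale. A probe was tested when 2 or more of the 4 arrays of a group had it well above background, which left 33467 of 41000. Probes were named through their RefSeq accession (28078 probes) and otherwise by the array's design. The probe with the highest mean stands for a gene.

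lmFit and eBayes were fitted to all 3 groups, two-sided, with Benjamini-Hochberg adjustment over all probes tested. Groups came from the labels. Named are the 10 genes, the called genes of each pathway list (with all arrays or without 28 µM replicate 4) or else its 2 detected genes of largest change at 42 µM, and the 3 genes closest to each of the 10 over the arrays. The result of 1 gene that this rule names is not reported here. The 10 genes, the lists (chosen from general knowledge) and the tests were chosen with earlier results of these data known, so lists are described by counts and medians without a test. The procedure was tested on simulated arrays with independent noise and no differences between slides. That test therefore does not cover slide effects or an array that stands apart. The alternatives were other background corrections and scalings, the deposited log2 values, no filter or a stricter one, a block for slide or for replicate number, slide as a random block, a model of only the groups compared, a log2 limit of 1, other probes of a gene, the scanner's other detection flag and leaving out each array. Same-numbered arrays of different groups correlated in their deviations from the group means with r between −0.46 and 0.62 (median 0.22), over 0.1 in 7 of 12 pairs. For arrays of other numbers r lay between −0.59 and 0.57 (median −0.07), over 0.1 in 11 of 36 pairs. These values do not settle whether the numbers pair the arrays. The main model does not pair them, and the replicate number as a block is among the alternatives. Promoters came from RefSeq, probe positions from the scanner files, and plots and sequence searches were made with Python 3.11.15.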

Additional observations from a re-analysis of the deposited data

Results flagged for a closer look

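In 27 sets of 4 arrays, 9 genes in 3 groups each, 1 array lay farther from the other 3 than Dixon's 95% critical value allows in 2 sets; chance alone gives about 1 in 20. TNFAIP3 read 7.87 on 28 µM replicate 2, above 7.61 to 7.65 on the other 28 µM arrays. ICAM1 read 12.07 on 28 µM replicate 4, above 11.78 to 11.82 on the others. All of these readings lay within its DMSO range of 11.60 to 12.19. The array is the one that stood near DMSO over the genes called at 42 µM, and whether that bears on ICAM1 was not tested.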

How the results depend on the processing

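Over 22 alternatives CXCL1 was called at 42 µM in 13 and its log2 fold change stayed between −1.58 and −1.28. None of the other 8 detected genes was called in any alternative run at either dose. Of the 10 genes, the number called lower at 42 µM was 0 with the slide as a block (1 at an unadjusted p below 0.05) and 0 to 1 when 1 array was left out; at 28 µM it was 0 to 1, the 1 being CXCL1 without 28 µM replicate 4. Of the 130 pathway genes, the number called higher at 42 µM, 1 with all arrays, was 0 with Edwards values and 75th percentile scaling in place of quantiles, with a log2 limit of 1 and with the slide as a block (3 at an unadjusted p below 0.05), 2 with the deposited values, with only the groups compared and with the stricter filter, 3 with the slide as a random block, and 0 to 3 with 1 array left out. The number called lower at 42 µM, 4 with all arrays, was 1 with the log2 limit of 1, 0 with the slide as a block (6 at an unadjusted p below 0.05), and 0 to 6 with 1 array left out; at 28 µM it was 0 to 7, the 7 without 28 µM replicate 4. A fit with an array less or a block more has fewer residual degrees of freedom, and the part of this in the counts was not tested. With the replicate number as a block, the pathway genes called at 42 µM were 3 higher and 5 lower, and 1 of the 10 genes was called lower. Among the alternatives, the share of all genes called was counted only without 28 µM replicate 4. It was then 2.23% higher and 1.87% lower at 42 µM. Changed counts in the other settings are therefore not a result about these genes. Whether the numbers pair the arrays is not settled, and the main model does not pair them. The dimmer probe of TNFAIP3 turned its log2 fold change to 0.078 at 28 µM and 0.034 at 42 µM. Of 22 alternatives CCL20 changed sign in 8 at each dose, ICAM1 in 4 at 28 µM and 5 at 42 µM, and CCL2 in 2 at 42 µM. By the other detection flag 10 of the 10 genes were detected, against 9. CXCL1 changed by −1.26 to −1.38 relative to CXCL2 and by −1.08 to −1.25 relative to CXCL3 at 42 µM in the settings run. CXCL8 and CCL2, at or close to background, are limited by signal over background.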

Other observations

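The lower of the 2 probes of TNFRSF1A, the main receptor for tumor necrosis factor, followed the slides as CCL20 did, a pattern picked out after the values had been seen. It read 7.23 to 7.40 on slides 1 and 4 and 8.26 to 8.72 on slides 2, 3 and 5, and 98.0% of its variance lay between slides. Over the 12 arrays, which share slides, its Pearson r with CCL20 was 0.80. The brighter probe of the same gene had 53.8% of its variance between slides and an r of −0.32 with CCL20, so the probes of this gene disagree. The part of the slide was not tested.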
